A study of Mus musculus with 32 samples.

Results

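The regions described here are the places in mouse embryonic stem cells where ChIP-seq found the tagged SAGA subunit TAF6L on chromatin marked as a promoter. They overlapped no wild-type peak of the pluripotency factor Oct4. The peaks of both TAF6L-FB cell lines, named 15 and 9, were joined into 1630 regions on chromosomes 1 to 19. Of these, 9 overlapped a peak of the control that carries only the biotin ligase BirA and were dropped, which left 1621. The BirA list held 24 peaks on these chromosomes, called at a fragment size of 49 bp, against 300 bp for the TAF6L-FB lists. Without the BirA filter the regions described here also numbered 854, so it removed none of them. A wild-type H3K4me3 peak overlapped 946 of the 1621 by at least 1 bp, and 92 of the 946 also overlapped a wild-type Oct4 peak. The remaining 854 regions, 52.7% of the 1621, are the ones described. They were thus chosen by their TAF6L-FB, BirA, wild-type H3K4me3 and wild-type Oct4 peaks, and these values are given as a description only. The other TAF6L regions were 252 at an Oct4 peak and 515 with neither H3K4me3 nor Oct4.

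The study compared J1 mouse embryonic stem cells of 3 genotypes, Wild-type, Taf5l-KO and Taf6l-KO, all grown with serum and LIF and fixed with formaldehyde. In each genotype 7 targets were precipitated: H3K4me3, H3K9ac, Myc, Oct4, total RNA polymerase II (RNAP) and its forms phosphorylated at serine 5 (RNAP-ser5) and serine 2 (RNAP-ser2). A further 5 libraries came from cells of wild-type genotype that carry TAF6L-FB (lines 15 and 9), TAF5L-FB (lines A5 and A6) or BirA alone, precipitated on streptavidin beads. There was 1 library for each antibody and genotype, and the input names in the file headers show 1 knockout clone each (B2 for Taf5l, A12 for Taf6l), so differences between genotypes have no replicate check and carry no p-value. Intervals given below are exact Clopper-Pearson 95% intervals over regions or peaks, and they cover counting error only.

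TAF6L and TAF5L are relatives of the TFIID subunits TAF6 and TAF5 and belong to the core of SAGA, a coactivator that carries an acetyltransferase for histone H3, with lysine 9 among its substrates, and a deubiquitinase for histone H2B. H3K4me3 marks the start sites of active and poised genes, and H3K9ac those of active genes. RNA polymerase II is phosphorylated on serine 5 of its repeated tail as it leaves the promoter and on serine 2 as it elongates, while Myc binds promoters that are already open and Oct4 binds mostly enhancers.

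After removal of duplicate tags the 21 libraries of the 3 genotypes held 1702363 to 22968606 tags, and the 5 streptavidin libraries 18292747 to 27775010. Duplicates made up 92.6% of the tags of the shallowest library, that of RNAP-ser5 from Taf6l-KO cells. The lists themselves differ in length. On chromosomes 1 to 19 there were 4024 H3K9ac peaks in wild type, 110 in Taf5l-KO and 880 in Taf6l-KO, from 17460064, 22968606 and 18739413 unique tags. For this reason each share at the TAF6L regions is set beside the same share over all 30706 wild-type H3K4me3 peaks without Oct4, measured in a window of 352 bp at the centre of each peak, the median width of the TAF6L regions. These windows are called promoter windows below. The coordinates are those of the mouse build mm9, and genes were not assigned, because a gene annotation of that build was not used here.

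The 854 regions were 300 to 1500 bp wide and together covered 0.330 Mb. As a description of what the choice of peaks rests on, their best −log10 q in the TAF6L-FB lists ran from 1.47 to 37.7 with a median of 4.71, and 499 of them stayed below 5. Line 15 supplied 686 regions, line 9 supplied 216, and peaks of both lines covered 48, which is 6.997% of the regions of line 15 and 22.2% of those of line 9. The share found in both lines was 5.62% (4.17 to 7.38) at these promoters, against 19.8% (15.1 to 25.3) of the TAF6L regions at Oct4 and 5.63% (3.80 to 7.99) of those with neither. Most of the regions therefore rest on 1 library, and built anew from line 9 alone the regions numbered 217. Fold enrichment over input, the authors' own value for each peak, had a median of 4.26 in line 15 (1.75 to 8.22) and 4.32 in line 9 (2.304 to 7.62).

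Among the regions of both lines the strongest was chr1:88383892-88384439, with a fold enrichment of 8.22 in line 15 and 5.84 in line 9. It lay wholly inside a wild-type H3K4me3 peak and overlapped one in each knockout (fold enrichment 11.7 in wild type, 10.8 in Taf5l-KO and 12.4 in Taf6l-KO) and carried an RNAP peak of 6.59, 7.41 and 8.00 in the same order. Its H3K9ac peak, at 4.66, was present in wild type alone. The region chr19:23207639-23208228 reached 3.95 in line 15 and 7.54 in line 9. Its H3K4me3 peak, at 3.43, was called in wild type and in neither knockout, yet RNAP was called in all 3 genotypes at 7.53, 9.49 and 9.85. The strongest region of line 9 alone, chr11:96051467-96051947 at 7.62, had no RNAP, H3K9ac or Myc peak in any genotype, and its wild-type H3K4me3 peak was 3.38. The strongest of line 15 alone, chr8:87174132-87174555 at 6.63, lay at the edge of a weak wild-type H3K4me3 peak of 3.11 and also had a TAF5L-FB peak of 6.05.

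The overlap with H3K4me3 was rarely marginal. H3K4me3 peaks covered 689 of the 854 regions over their whole length, and 44 overlapped by less than 100 bp. The smallest overlap was 1 bp, at chr12:87845230-87845529 and chr15:84496190-84496530. Just outside the rule, the nearest regions without Oct4 lay 3 bp from an H3K4me3 peak, at chr17:27461980-27462346, and 8 bp from one, at chr11:97523630-97524029, and 30 regions in all lay within 100 bp. The fold enrichments at chr17:27461980-27462346 (3.45 in line 15) and at chr11:97523630-97524029 (4.24 in line 15 and 4.57 in line 9) lay within the range of the members.

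The place of the TAF6L summits in the H3K4me3 peak is a description only. The rule kept only regions overlapping such a peak, and no expected share is given. Of 854 summits 759 (88.9%) fell inside an H3K4me3 peak, at a median of 596 bp from the nearer edge, and 483 of the 759 (63.6%) fell in the middle 50% of the peak. Nearly every H3K4me3 peak involved held a single region: 830 held 1 and 12 held 2. The rule had removed regions overlapping wild-type Oct4. The median distance from a region to the nearest wild-type Oct4 peak was 210272 bp, and no such distance is given here for other promoters. Within 1000 bp of an Oct4 peak lay 13 regions (1.52%, 0.813 to 2.59), beside 0.772% of the promoter windows. In all, 39 regions lay within 5000 bp of one, and 675 lay more than 50000 bp away.

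Wild-type H3K4me3 peaks were part of the rule, and a wide peak overlaps a region more easily. As a description only, the H3K4me3 peaks that held a TAF6L region were broad and strong ones. The 829 such peaks without Oct4 had a median width of 1913 bp, against 769 bp for the 29850 without any TAF6L region, and a median fold enrichment of 8.78 against 5.49. Over all H3K4me3 peaks without Oct4, the median peak holding a region stood at percentile 84.4 of width and percentile 78.2 of fold enrichment. A TAF6L region was present in 1.04% of the weakest quartile of H3K4me3 peaks by fold enrichment, in 1.42% and 2.49% of the next quartiles, and in 5.85% of the strongest. Because a wide, strong peak overlaps other peaks more easily, comparisons with other promoters are also given within quartiles below. Sorted by the fold enrichment of TAF6L itself in line 15, from the lowest quartile to the highest, the share of regions with wild-type H3K9ac was 26.3, 19.8, 27.5 and 24.4%, and the share with RNAP 72.5, 73.3, 76.0 and 77.3%. In line 9, with 54 regions in each quartile, the shares were 33.3, 33.3, 24.1 and 24.1% for H3K9ac and 64.8, 70.4, 70.4 and 66.7% for RNAP. No trend was tested.

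H3K9ac was called at fewer of these promoters in both knockouts than in wild type. In wild type 211 of the 854 regions (24.7%, 21.8 to 27.7) overlapped an H3K9ac peak, in Taf5l-KO 7 (0.820%, 0.330 to 1.68) and in Taf6l-KO 58 (6.79%, 5.20 to 8.69). The promoter windows stood at 9.22% in wild type, 0.111% in Taf5l-KO and 1.32% in Taf6l-KO, so the order of the genotypes was the same there, at lower levels. Taf5l-KO had the most unique H3K9ac tags of the 3 genotypes and the fewest peaks. Each H3K9ac library was larger than its input and so was scaled down to it in peak calling. The inputs held 7771755 unique tags in wild type, 6245652 in Taf5l-KO and 5923469 in Taf6l-KO. The part of depth in these shares was not tested. Of the 211 acetylated regions 156 had H3K9ac in wild type alone, 48 in wild type and Taf6l-KO, and 7 in all 3 genotypes, whereas none had it in wild type and Taf5l-KO without Taf6l-KO. A further 3 regions had a peak in Taf6l-KO only. At the other TAF6L regions wild-type H3K9ac was rarer, at 10.3% (6.85 to 14.8) of those at Oct4 and 1.36% (0.548 to 2.78) of those with neither.

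**Figure D1:**
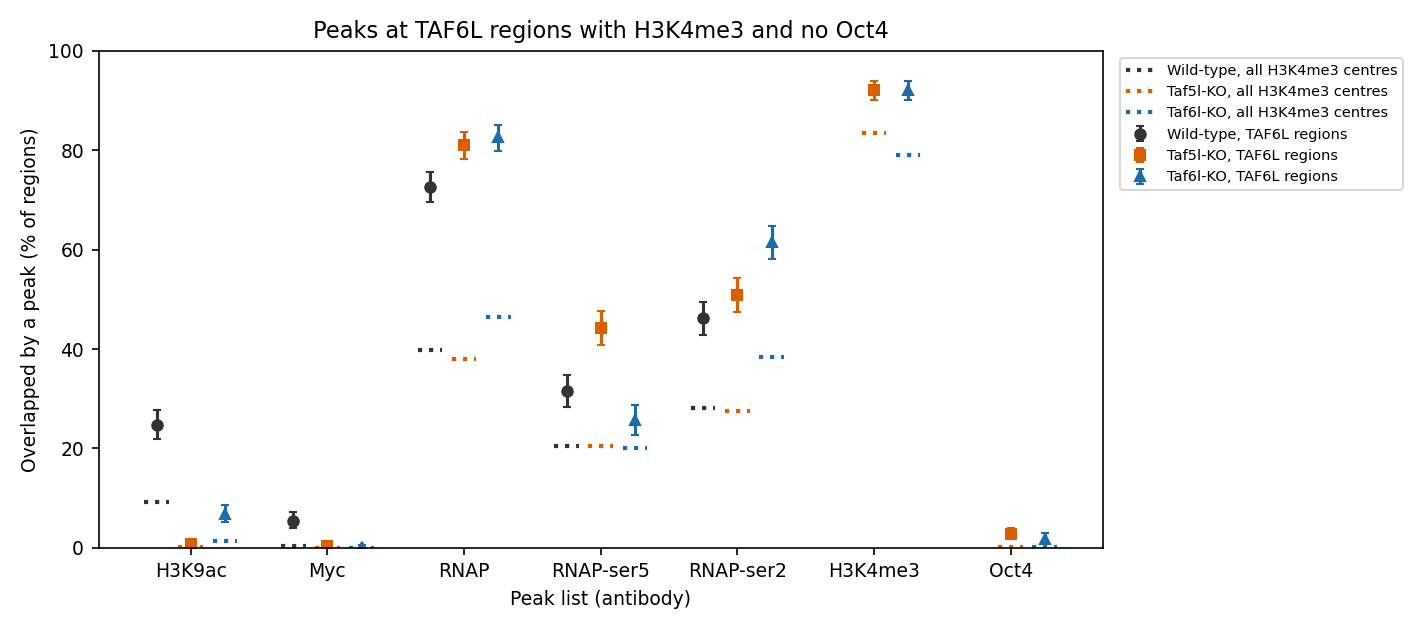
Percentage of the 854 TAF6L regions overlapped by a peak of each antibody (points, with exact 95% intervals for counting error), with a colour for each of the genotypes Wild-type, Taf5l-KO and Taf6l-KO, beside the same percentage for the promoter windows of all H3K4me3 peaks without Oct4 (dotted marks); wild-type H3K4me3 and Oct4 are left out because the rule fixes them. H3K9ac goes from 24.7% to 0.820% and 6.79%, while RNAP goes from 72.6% to 81.0% and 82.6%.

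High wild-type H3K9ac peaks were found both among those that neither knockout matched and among those that both matched. At chr4:133523743-133524099 H3K9ac was 9.81 in wild type and was not called in either knockout, while RNAP was 7.56 in wild type, 6.78 in Taf5l-KO and 11.1 in Taf6l-KO. At chr5:143667350-143667774 H3K9ac was 9.61 in wild type only, and RNAP was 7.85, 9.74 and 22.6 in the same order. At chr6:136752376-136753076, a region of both lines, H3K9ac was 8.67 in wild type only and RNAP was 18.2, 13.8 and 13.8. Polymerase and H3K4me3 peaks were thus still listed at these 3 regions where H3K9ac was not. At chr1:120355661-120356223, in contrast, H3K9ac was called in all 3 genotypes at 8.71, 6.58 and 7.45. RNAP at that region was 26.1 in wild type, 9.69 in Taf5l-KO and 9.19 in Taf6l-KO, and it also had a wild-type Myc peak of 6.47 and a TAF5L-FB peak of 4.46. At chr4:131826072-131826458 H3K9ac was 8.19, 8.49 and 8.10, with RNAP of 26.6, 23.9 and 21.1. Across all members, wild-type H3K9ac fold enrichment had a median of 4.98 (3.06 to 9.81) at the 156 regions with H3K9ac in wild type only, 5.69 (2.20 to 9.16) at the 48 that Taf6l-KO also had, and 6.42 (6.08 to 8.71) at the 7 with H3K9ac in all genotypes.

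Counted from the side of the wild-type peaks, 209 H3K9ac peaks overlapped a TAF6L region, and a Taf6l-KO peak overlapped 71 of them (34.0%, 27.6 to 40.8), against 19.4% of all wild-type H3K9ac peaks and 18.5% (17.3 to 19.8) of those at other promoters without TAF6L or Oct4. In Taf5l-KO 10 of the 209 were matched (4.78%, 2.32 to 8.62), against 2.61% of all. The wild-type peaks at TAF6L regions were stronger, with a median fold enrichment of 5.26 against 4.82 for all. By quartile of wild-type fold enrichment, the share matched in Taf6l-KO at TAF6L regions was 20.6, 20, 30 and 48.2% from the weakest to the strongest, and 6.68, 6.74, 16.95 and 45.0% at other promoters. The gap was thus small in the strongest quartile, where the interval at TAF6L regions (37.3 to 59.3) spanned the other value. When 50% of the wild-type peak had to be covered, the matched share at TAF6L regions was 10.5% in Taf6l-KO and 0.478% in Taf5l-KO.

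Within quartiles of H3K4me3 strength the promoters with TAF6L still carried wild-type H3K9ac more often. In the strongest quartile 58.4% (53.6 to 63.0) of those holding a TAF6L region overlapped H3K9ac, against 39.9% (38.7 to 41.0) of those with none. In the quartile below, the shares were 20.9% and 5.78%. The intervals did not overlap in the upper 3 quartiles. Among the widest quartile of H3K4me3 peaks the shares were 51.0% (46.7 to 55.3) and 35.3% (34.2 to 36.4).

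**Figure D2:**
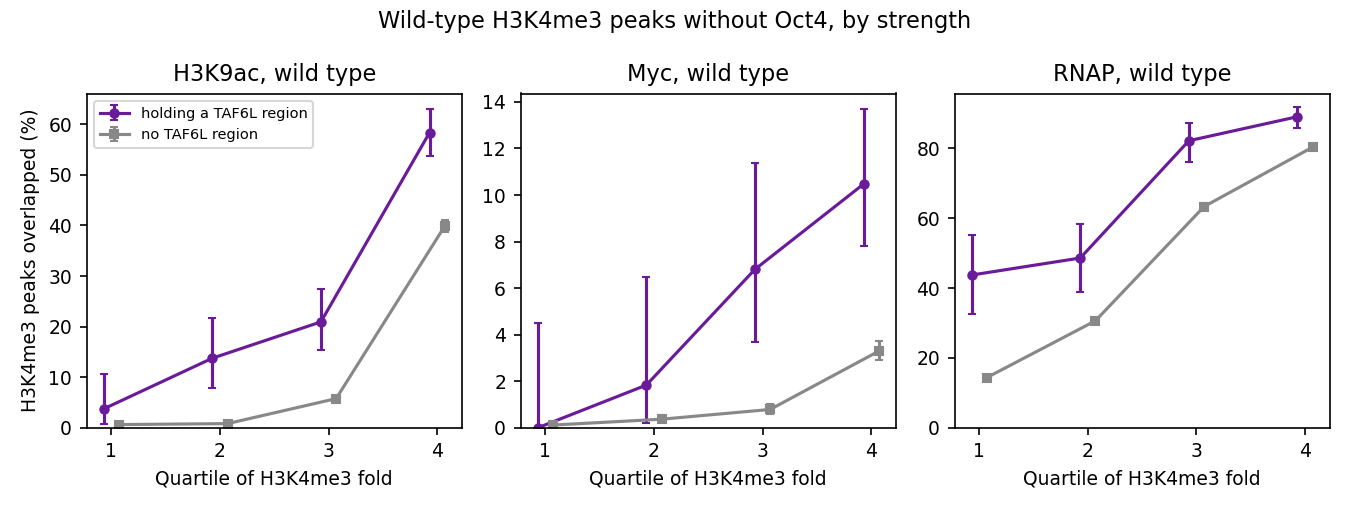
Percentage of wild-type H3K4me3 peaks without Oct4 that overlapped a wild-type H3K9ac, Myc or RNAP peak, by quartile of H3K4me3 fold enrichment (1 weakest, 4 strongest), for peaks holding a TAF6L region and peaks with none; bars are exact 95% intervals for counting error. In the strongest quartile H3K9ac stands at 58.4% against 39.9%, Myc at 10.5% against 3.29% and RNAP at 89.1% against 80.4%.

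Wild-type H3K9ac coverage was somewhat lower at the TAF6L summit than beside it, whereas RNAP coverage was highest at the summit. No intervals are given for these positions. In wild type an H3K9ac peak covered 13.7% of the summits, 16.98% of the positions 300 bp to either side and 14.3% of those at 500 bp. An RNAP peak covered 59.3% of the summits and 27.4% of the positions 500 bp away. In the knockouts RNAP covered 69.8% (Taf5l-KO) and 70.5% (Taf6l-KO) of the summits. In Taf6l-KO H3K9ac coverage was also lower at the summit, at 1.99%, than at 300 bp, at 3.04%. Few regions make up these Taf6l-KO shares, since 58 of the 854 had such a peak, and the dip was not tested. In both genotypes 300 bp was the distance with the highest coverage, so it was picked from these same values. At the centres of H3K4me3 peaks without TAF6L, H3K9ac had no dip, with 6.32% at the centre and 2.77% at 500 bp, but those centres are midpoints of peaks and not summits of a bound protein.

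**Figure D3:**
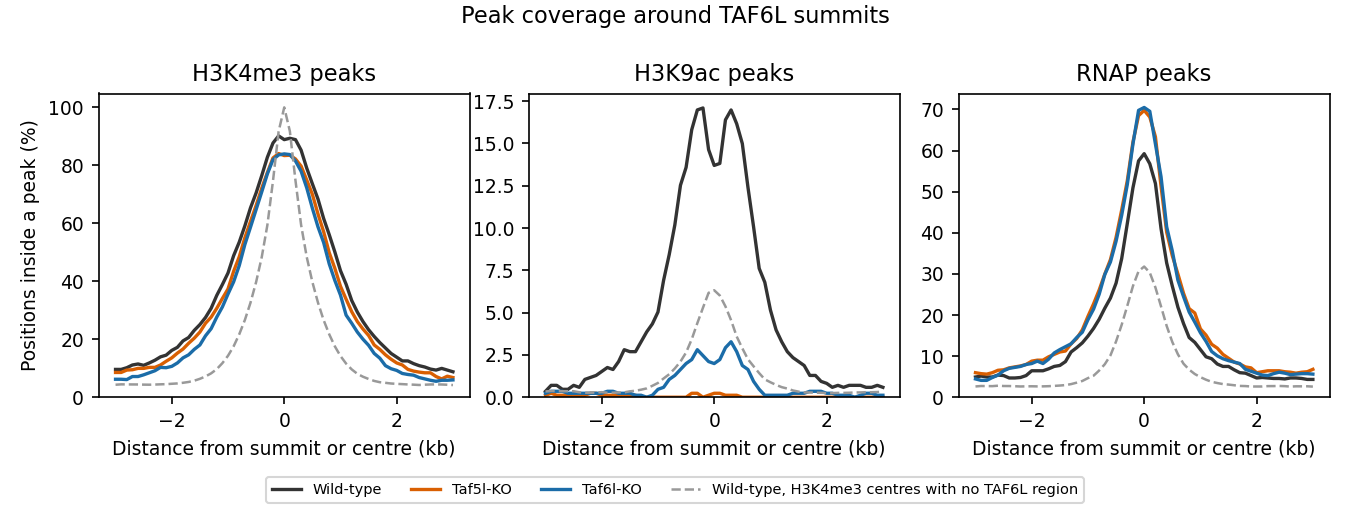
Percentage of positions inside an H3K4me3, H3K9ac or RNAP peak, by distance in kb from the TAF6L summit, as 1 line for each genotype (Wild-type, Taf5l-KO, Taf6l-KO), and around the centres of wild-type H3K4me3 peaks with no TAF6L region (dashed); each panel has its own vertical scale. Wild-type H3K9ac dips to 13.7% at the summit between shoulders of 16.98%, and RNAP peaks at the summit at 59.3% in wild type and about 70% in both knockouts (69.8% and 70.5%).

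Myc, a basic helix-loop-helix factor of proliferating cells, was called at few of these promoters, and at almost none in the knockouts. There were 46 regions with a Myc peak in wild type (5.39%, 3.97 to 7.12), 4 in Taf5l-KO (0.468%, 0.128 to 1.19) and 1 in Taf6l-KO (0.117%, 0.00296 to 0.651). The promoter windows stood at 0.423%, 0.0163% and 0.00326%. The Myc lists were short everywhere, with 531 peaks in wild type, 32 in Taf5l-KO and 22 in Taf6l-KO on chromosomes 1 to 19, and the fragment size estimated by the peak caller was 95 bp in wild type but 51 and 50 bp in the knockouts, about the tag length of 50 bp. The part of that difference in the result was not tested. Of the 48 wild-type Myc peaks at the regions, 4 were matched in Taf5l-KO (8.33%, 2.32 to 19.98) and 1 in Taf6l-KO (2.08%, 0.0527 to 11.1), beside 3.77% and 1.51% of all wild-type Myc peaks. The intervals at the regions hold the shares of all peaks.

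At regions with a Myc peak, the overlap itself limits how far apart the TAF6L and Myc summits can lie, so their distance is a description only. Over 48 pairs the median distance between the TAF6L and the Myc summit was 84.5 bp. The range was 2 to 541 bp, and 26 pairs lay within 100 bp. The strongest Myc peak, 41.6 at chr19:8787326-8787894, was 7.33 in Taf5l-KO and not called in Taf6l-KO. At chr4:128866908-128867334 Myc was 25.7 in wild type, 7.30 in Taf5l-KO and not called in Taf6l-KO. The only region with Myc in all 3 genotypes was chr1:135027518-135028008, at 23.0, 11.8 and 6.53. At chr1:162965069-162965448 a Myc peak of 19.5 in wild type was matched in neither knockout, while RNAP there was 12.8, 10.7 and 11.997. The 3 Myc peaks with a knockout match named here were all lower in the knockouts than in wild type. They were named for their high wild-type Myc, so this direction is not read as a result. Of the 46 regions with Myc 30 had wild-type H3K9ac, and 45 had RNAP in all 3 genotypes, beside 24.7% and 68.5% of all 854 regions. No such counts over other promoters with Myc are given here, so these are not shown to be particular to the TAF6L regions. Among H3K4me3 peaks of the strongest quartile, 10.5% (7.79 to 13.7) of those holding a TAF6L region overlapped Myc, against 3.29% (2.89 to 3.73) of those with none.

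Polymerase behaved the other way from H3K9ac and Myc: more of the regions carried an RNAP peak in the knockouts. Total RNAP was called at 620 regions in wild type (72.6%, 69.5 to 75.6), 692 in Taf5l-KO (81.0%, 78.2 to 83.6) and 705 in Taf6l-KO (82.6%, 79.8 to 85.0). Over the promoter windows the shares were 39.9%, 38% and 46.5%, so in Taf5l-KO the share was higher than in wild type at the TAF6L regions and lower than in wild type over all promoters. The wild-type RNAP library was the shallowest of the 3, with 5174150 unique tags against 15865460 in Taf5l-KO and 7236644 in Taf6l-KO, and the part of depth in the result was not tested. RNAP was present in all 3 genotypes at 585 regions (68.5%) and in none at 108 (12.6%). It was called only in knockouts at 126, of which 76 had it in both, and 35 regions had it in wild type but lacked it in at least 1 knockout. No counts of these patterns over the promoter windows are given here.

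The 108 regions without a total RNAP peak lay in weaker H3K4me3 peaks, with a median fold enrichment of 4.57 and a width of 1078 bp, against 9.34 and 2128 bp at the 585 regions with RNAP throughout. Of the 108, 2 had H3K9ac and none had Myc, while 3 had a wild-type RNAP-ser5 peak, 4 a wild-type RNAP-ser2 peak and 7 an RNAP-ser2 peak in Taf6l-KO. The H3K4me3 peaks of chr4:133951848-133952318 (8.15, 7.83 and 8.37) and of chr8:64069795-64070315 (9.11, 10.4 and 8.47) show that a strong H3K4me3 peak in all 3 genotypes could also go without a called RNAP, H3K9ac or Myc peak. At the other end, chr13:114584313-114584615 had the highest wild-type RNAP, 28.3, against 10.9 in Taf5l-KO and 13.8 in Taf6l-KO, and no H3K9ac peak in any genotype. Its RNAP-ser5 was 11.0, 5.96 and 4.54 and its RNAP-ser2 was 11.4, 5.86 and 8.71, so that all 3 polymerase forms had their highest value in wild type there. The region was named for its wild-type RNAP, so this order is not read as a result.

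The phosphorylated forms did not move alike. RNAP-ser5, the form that leaves the promoter, was called at 269 regions in wild type (31.5%, 28.4 to 34.7), 378 in Taf5l-KO (44.3%, 40.9 to 47.7) and 219 in Taf6l-KO (25.6%, 22.7 to 28.7), while the promoter windows stayed at 20.5%, 20.4% and 20%. RNAP-ser2, the elongating form, was called at 394 (46.1%, 42.8 to 49.5), 434 (50.8%, 47.4 to 54.2) and 525 (61.5%, 58.1 to 64.8) regions, beside 28.1%, 27.6% and 38.4% of the windows. The order of the RNAP-ser5 shares was that of the library depths: 8807133 unique tags in Taf5l-KO, 3871824 in wild type and 1702363 in Taf6l-KO. For RNAP-ser2 it was not, since Taf6l-KO had the highest share and the fewest unique tags, 3842867, against 5390622 in Taf5l-KO and 6295522 in wild type. The part of depth in these shares was not tested. When peaks with a −log10 q under 5 were dropped, RNAP-ser2 was at 14.8% of the regions in wild type, 13.2% in Taf5l-KO and 20.7% in Taf6l-KO, so the step from wild type to Taf5l-KO changed sign.

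Against other promoters of like strength, wild-type total RNAP was more frequent where TAF6L was found. In the weakest quartile of H3K4me3 peaks by fold enrichment 43.8% (32.7 to 55.3) of those holding a TAF6L region overlapped RNAP, against 14.4% (13.6 to 15.2) of those with none, and in the strongest 89.1% (85.8 to 91.8) against 80.4% (79.4 to 81.3). Within quartiles of width the intervals overlapped in the narrowest quartiles, where RNAP was at 31.6% against 20.7% and then 43.3% against 39.9%. RNAP-ser5 was not more frequent in peaks of like width outside the widest quartile, with 7.89, 15 and 25% of the peaks holding a region against 11.0, 25.7 and 28.5% of those with none. In the widest quartile it was at 49.2% (44.9 to 53.5) against 34.6% (33.5 to 35.7).

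Wild-type total RNAP peaks at the TAF6L regions were matched in both knockouts more often than those elsewhere. Of 612 RNAP peaks a Taf5l-KO peak overlapped 594 (97.1%, 95.4 to 98.2) and a Taf6l-KO peak 593 (96.9%, 95.2 to 98.1), against 52.5% and 60.1% of all wild-type RNAP peaks and 75.2% and 87.3% of those at other promoters. In Taf5l-KO the shares by quartile of wild-type fold enrichment were 86.8, 94.0, 97.0 and 99.7% at TAF6L regions and 48.8, 59.3, 72.8 and 91.9% at other promoters. The gap was therefore present at matched strength, and narrowed as the peaks grew stronger. For RNAP-ser2, 391 wild-type peaks lay at the regions. Taf5l-KO matched 81.3% (77.1 to 85.1) of them and Taf6l-KO matched 88.0% (84.3 to 91.0), against 36.4% and 38.3% of all wild-type RNAP-ser2 peaks and 69.4% (68.5 to 70.3) and 81.2% (80.5 to 82.0) of those at other promoters. In the weakest quartile the Taf6l-KO shares were in the other order, 64.4% at TAF6L regions and 66.2% at other promoters.

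RNAP-ser5 set the knockouts apart. In Taf5l-KO 211 of 265 wild-type peaks at the regions were matched (79.6%, 74.3 to 84.3), against 26.3% of all and 60.7% of those at other promoters. In Taf6l-KO 149 were matched (56.2%, 50.0 to 62.3), against 16% of all and 59.4% (58.3 to 60.5) at other promoters. In quartiles 2 and 3 of wild-type strength the Taf6l-KO shares at TAF6L regions were 25% and 32.7%, below the 47.1% and 58.7% at other promoters, and in the strongest quartile they were 74.1% and 70.7%. When 50% of the wild-type peak had to be covered, the share matched at TAF6L regions in Taf6l-KO was 27.5%.

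**Figure D4:**
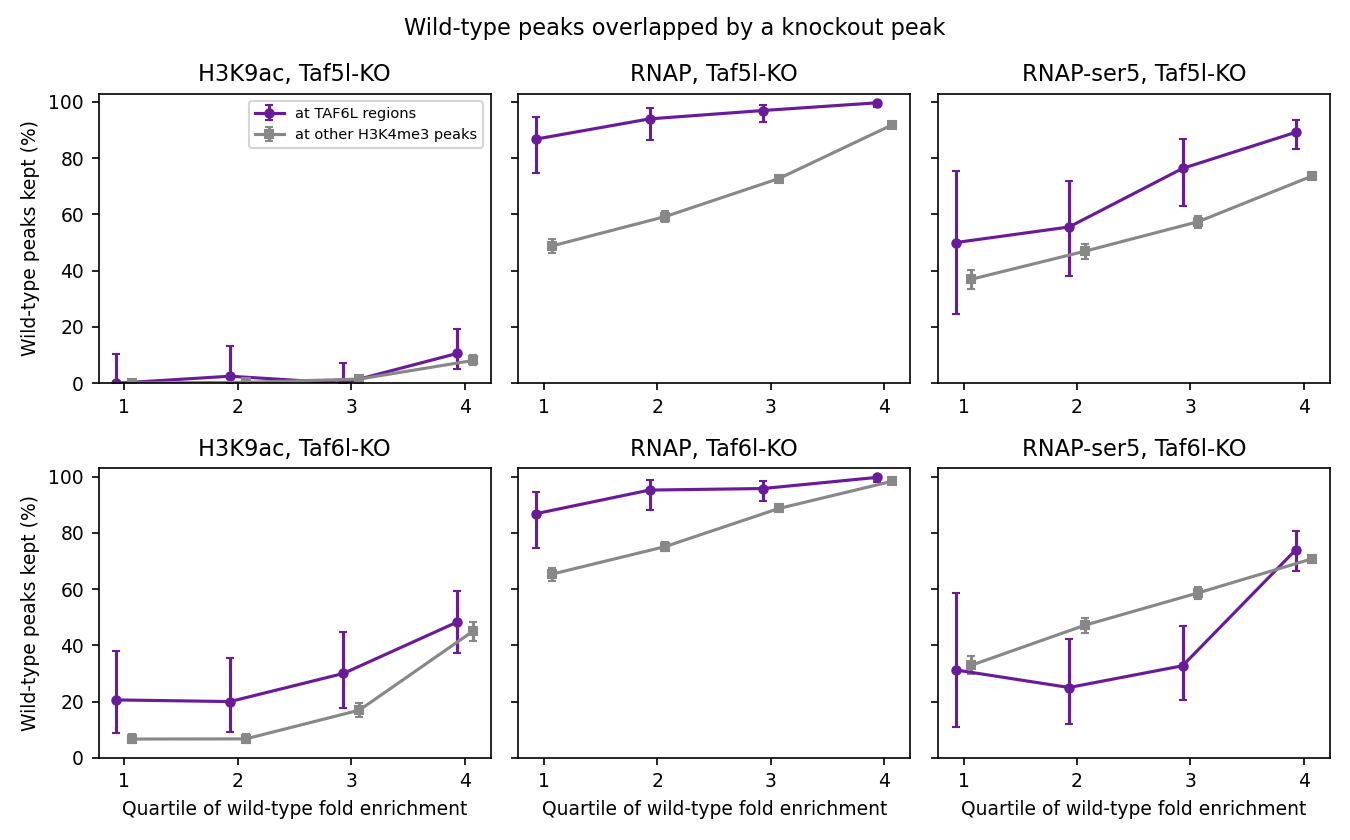
Percentage of wild-type H3K9ac, RNAP and RNAP-ser5 peaks overlapped by a peak of the same antibody in Taf5l-KO (upper row) or Taf6l-KO (lower row), by quartile of wild-type fold enrichment (1 weakest, 4 strongest), at TAF6L regions and at other H3K4me3 peaks without TAF6L or Oct4; bars are exact 95% intervals for counting error. RNAP peaks at TAF6L regions stand at 86.8% or more in every quartile of both knockouts, whereas RNAP-ser5 in Taf6l-KO lies below the other promoters in quartiles 2 and 3.

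Regions with wild-type H3K9ac nearly all had polymerase, in the knockouts as well, where most had no H3K9ac peak, and so did most other promoters with H3K9ac. Of the 211 regions with wild-type H3K9ac 205 had RNAP in all 3 genotypes (97.2%, 93.9 to 98.9), beside 2287 of the 2832 promoter windows with wild-type H3K9ac (80.8%, 79.3 to 82.2). Of the 156 regions whose H3K9ac was called in wild type only, 153 had RNAP in Taf5l-KO and 153 in Taf6l-KO (98.1% each, 94.5 to 99.6), beside 91.1% and 90.7% of the 2475 such promoter windows. These windows were not matched for the strength of their peaks. H3K4me3 was called at 155 of the 156 regions in Taf5l-KO and 154 in Taf6l-KO. The 156 regions lay in strong H3K4me3 peaks, with a median fold enrichment of 10.6. In the strongest quartile, peaks at other promoters were matched nearly always too, at 7227 and 7226 of 7227. RNAP-ser5 was called at 97 of these 156 regions in wild type, 119 in Taf5l-KO and 67 in Taf6l-KO, and RNAP-ser2 at 118, 126 and 137. At the 48 regions that also had H3K9ac in Taf6l-KO, RNAP-ser5 was called at 35, 41 and 38. A region listed without H3K9ac has no called peak, which is not a measured absence of the mark.

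H3K4me3 itself was called at most of the regions in every genotype. A knockout peak overlapped 787 of the 854 regions (92.2%, 90.1 to 93.9) in Taf5l-KO and the same number in Taf6l-KO, beside 83.5% and 79.1% of the promoter windows, and 763 regions had it in all genotypes. The 43 regions with H3K4me3 in neither knockout lay in weak and narrow wild-type peaks, with a median fold enrichment of 3.59 and a width of 614 bp. Of the 842 wild-type H3K4me3 peaks at the regions, Taf5l-KO matched 93.8% (92.0 to 95.4) and Taf6l-KO 94.7% (92.9 to 96.1), against 84.2% and 80.3% of all. In the strongest quartile all 453 peaks at the regions were matched in both knockouts, and so were 7227 and 7226 of the 7227 at other promoters. In the weakest quartile 51.8% of the peaks at TAF6L regions and 51.3% of the others were matched in Taf5l-KO, and 59.0% against 40.3% in Taf6l-KO.

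Oct4, absent from these regions in wild type by the rule, was called at 23 of them in Taf5l-KO (2.69%, 1.71 to 4.01) and 16 in Taf6l-KO (1.87%, 1.07 to 3.02), beside 0.202% and 0.0879% of the promoter windows. The 515 TAF6L regions with neither H3K4me3 nor Oct4 had larger shares. Taf5l-KO Oct4 peaks overlapped 45 of these (8.74%, 6.44 to 11.5), and Taf6l-KO Oct4 peaks 29 (5.63%, 3.80 to 7.99). With a peak within 1000 bp, the Taf5l-KO share was 3.51% at the 854 regions against 1.16% of the windows. The Taf6l-KO share was then 3.16% against 0.853%. Of the 854 regions, 32 had an Oct4 peak in a knockout, 7 of them in both knockouts, and 5 of the 32 lay within 5000 bp of a wild-type Oct4 peak. Of the 32, 9 were regions of both TAF6L-FB lines, and with regions of line 9 alone the shares were 4.61% and 4.15%. At chr1:63185058-63185596 Oct4 was 6.24 in Taf5l-KO and 6.11 in Taf6l-KO, and a TAF5L-FB peak of 2.99 lay there too. At chr17:29588032-29588603 Oct4 was 8.46 in Taf5l-KO only, and the nearest wild-type Oct4 peak was 15898 bp away.

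TAF5L, the partner of TAF6L in the SAGA core, was called at 22 of the 854 regions (2.58%, 1.62 to 3.87), and at 0.0326% of the promoter windows. All 22 came from line A5. Line A6 had no peak at any of the 854, which allows a share of up to 0.351% (3 counts of the total) or, by the exact interval, 0.431%, but its whole list held 7 peaks on these chromosomes against 136 in line A5. The share was 14.7% (10.6 to 19.7) at the TAF6L regions with Oct4 and 4.08% (2.54 to 6.17) at those with neither, so it was lowest at the promoters, where the interval overlapped that of the regions with neither. Among the 48 regions of both TAF6L-FB lines 5 had TAF5L-FB (10.4%), and with regions of line 9 alone the share was 4.15%. Of the 22 regions 20 had wild-type RNAP and 8 wild-type H3K9ac. At chr17:29588032-29588603 the fold enrichment was 4.77 for TAF5L-FB and 6.80 and 5.35 for TAF6L-FB in lines 15 and 9, and at chr1:166433459-166433968 it was 4.28, 3.70 and 6.53.

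The TAF6L regions were unevenly spread over the chromosomes. Chromosome 1 held 139 of the 854 (16.3%) and chromosome 8 held 89 (10.4%), although these chromosomes held 7.16% and 5.28% of the H3K4me3 peaks without Oct4. Of the TAF6L regions at Oct4 they held 15.1% and 5.95%, and of those with neither H3K4me3 nor Oct4 9.32% and 10.5%. A region of line 15 was found in 5.18% of the H3K4me3 peaks of chromosome 1 and 5.25% of those of chromosome 8, and in 0.942 to 2.44% of those of each of the other 17 chromosomes. Line 9 was found in 1.55% on chromosome 1, 0.494% on chromosome 8 and 0.128 to 1.54% on the others, so chromosome 8 stood out in line 15 and not in line 9. Along chromosome 1 the share of H3K4me3 peaks with a region was 5.59, 7.50 and 5.73% in 3 successive parts with equal numbers of peaks, and along chromosome 8 it was 4.81, 5.74 and 5.56%. The 228 regions on these chromosomes resembled the 626 elsewhere in the wild-type marks, with RNAP at 70.6% against 73.3%, H3K9ac at 25.4% against 24.4% and Myc at 6.14% against 5.11%. Why both chromosomes hold more regions was not tested.

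**Figure D5:**
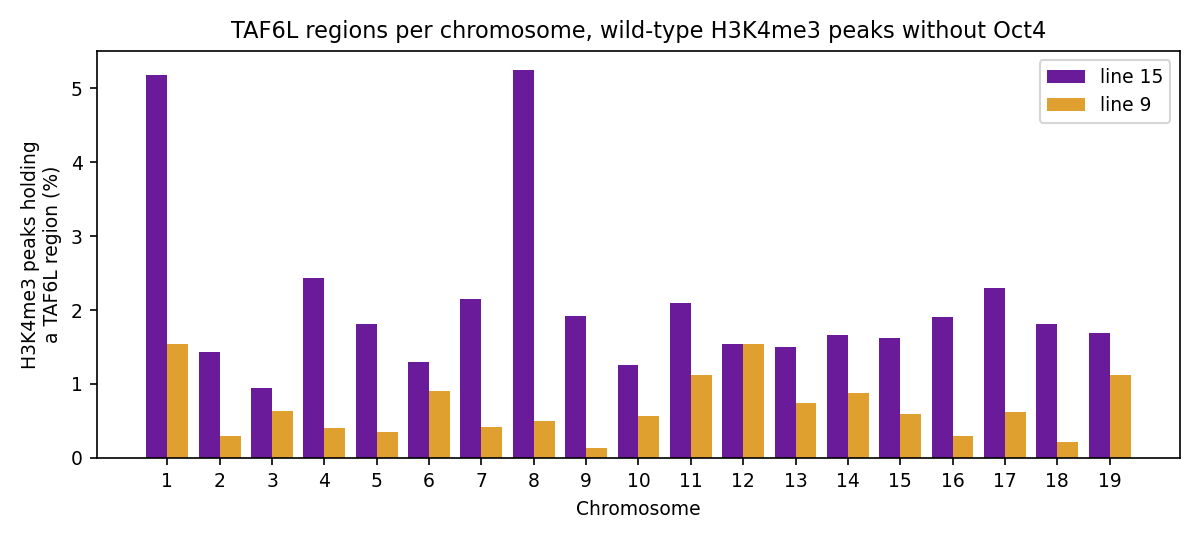
Percentage of wild-type H3K4me3 peaks without Oct4 that held a TAF6L region of line 15 or of line 9, for chromosomes 1 to 19. Line 15 stands at 5.18% on chromosome 1 and 5.25% on chromosome 8 and at most 2.44% elsewhere, and line 9 at 1.55% on chromosome 1 and 0.494% on chromosome 8.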

How the data were processed

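Peak lists of 26 libraries were used, 1 library per list. Per the submitters' processing notes, Bowtie2 2.3.2 and deepTools 2.5.3 were used with build mm9. Per the file headers, MACS2 2.1.1.20160309 called peaks against input at a q cutoff of 0.05, with at most 1 tag per position and the larger library scaled to the smaller. H3K4me3, H3K9ac and polymerase lists were called as broad regions (cutoff 0.1), the others not. TAF lists used a fragment size fixed at 300 bp, the other lists a modelled one. Deposited values are the fold enrichment (a ratio to local background), the pileup signal (not used here) and −log10 p and q of each peak. A fold enrichment belongs to its own list, whose scaling and calling mode set its level, so values of different lists are set side by side without a test.

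Python 3.11.15 joined overlapping peaks and counted overlaps of at least 1 bp. The counts were checked against bedtools 2.31.1, and the matching of peaks was tested on simulated lists. A region has the highest fold enrichment of the peaks overlapping it. Named regions were the strongest by TAF6L-FB in both or 1 line, by Myc, by H3K9ac in neither or both knockouts, with TAF5L-FB, and with the highest or no RNAP, plus the smallest overlaps. The regions and their classes were chosen with earlier results of these data known. Alternatives changed the overlap, the q threshold, the lines, the BirA and Oct4 filters and the unit counted. Leaving out chromosomes 1 and 8 was added after seeing the data.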

Additional observations from a re-analysis of the deposited data

Results flagged for a closer look

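RNAP-ser5 moved in opposite directions in the knockouts at the 854 TAF6L regions. The share of regions with an RNAP-ser5 peak was 12.8 percentage points higher in Taf5l-KO than in wild type. The Taf6l-KO share minus the wild-type share was −5.85 percentage points. The TAF6L regions at Oct4 moved in the same directions, at 19.4% in wild type, 29.0% in Taf5l-KO and 11.5% in Taf6l-KO. The difference between the knockouts was not tested, since each has 1 library. The depths differed in the same order, from 8807133 unique tags in Taf5l-KO to 3871824 in wild type and 1702363 in Taf6l-KO, and the part of depth was not tested.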

How the results depend on the processing

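Of 352 values recomputed, 175 counted as unchanged, 168 moved and 9 changed sign. The causes were not tested. A share counted as unchanged when it stayed within its counting interval. The number of regions was judged more loosely, since 687 and 626 against 854 counted as unchanged. The 9 that changed sign are differences in wild-type share between H3K4me3 peaks holding a region and those with none, in percentage points. Over all peaks these were 27.1 for H3K9ac, 6.36 for Myc, 31.0 for RNAP, 14.7 for RNAP-ser5 and 20.1 for RNAP-ser2. From the weakest to the strongest quartile of H3K4me3 fold enrichment they were 3.10, 12.9, 15.2 and 18.5 for H3K9ac. For Myc they were −0.119, 1.46, 6.02 and 7.17, and for RNAP 29.4, 17.96, 18.8 and 8.71. For RNAP-ser5 they were 4.48, 12.8, −0.158 and 11.6, and for RNAP-ser2 14.7, 15.1, 3.14 and 11.2. From the narrowest to the widest quartile they were 2.304, 7.84, 8.82 and 15.7 for H3K9ac. For Myc they were −0.0524, −0.118, 0.393 and 7.19, and for RNAP 10.9, 3.48, 10.1 and 13.5. For RNAP-ser5 they were −3.09, −10.7, −3.51 and 14.5, and for RNAP-ser2 16.3, −2.03, −2.63 and 13.6. Requiring 50% of the region to be covered gave (wild type first, then Taf5l-KO, then Taf6l-KO) 13.1, 0 and 1.76% for H3K9ac, 1.76, 0.117 and 0% for Myc and 58.9, 69.8 and 71.9% for RNAP. RNAP-ser5 was then 21.5, 31.3 and 13.6%, RNAP-ser2 32.9, 39.1 and 47.3%. In Taf5l-KO and Taf6l-KO it gave 83.4 and 84.5% for H3K4me3 and 0.234% each for Oct4. With a peak within 1000 bp, wild-type H3K9ac was 38.1% (12.1% of the promoter windows), Taf6l-KO H3K9ac 9.84% (2.59% of the windows) and wild-type Myc 7.85% (1.24% of the windows). RNAP was then 78.1% in wild type and 85.4% in Taf6l-KO, RNAP-ser5 39.0, 49.6 and 33.0%, RNAP-ser2 53.5, 57.7 and 69.1%, H3K4me3 94.3 and 94.96% in the knockouts and Oct4 3.16% in Taf6l-KO. With peaks of −log10 q of at least 5, H3K9ac was 8.08% in wild type and 2.46% in Taf6l-KO, Myc 0.117% in Taf5l-KO and 0% in Taf6l-KO, and RNAP 41.5, 55.2 and 60.0%. RNAP-ser5 was then 7.38, 15.8 and 6.91%, RNAP-ser2 14.8, 13.2 and 20.7%, and H3K4me3 81.5 and 80.2% in the knockouts. With the H3K4me3 peak as the unit, H3K9ac was 38.8% in wild type and 10.2% in Taf6l-KO, Myc 7.60% in wild type and RNAP 78.1, 84.0 and 85.2%. RNAP-ser5 was then 39.5, 50.1 and 33.4%, RNAP-ser2 53.7, 57.0 and 69.2%, and H3K4me3 94.7% in Taf6l-KO. At the 48 regions of both lines H3K9ac was 39.6, 0 and 12.5%, Myc 8.33, 0 and 0%, and RNAP 83.3, 83.3 and 85.4%. RNAP-ser5 was there 41.7, 52.1 and 35.4%, RNAP-ser2 52.1% in wild type and 58.3% in Taf5l-KO, Oct4 12.5 and 8.33% in the knockouts and TAF5L-FB 10.4%. Wild-type peaks at these 48 regions were matched at 0% for H3K9ac (0 of 19) and 0% for Myc (0 of 5) in Taf5l-KO. In Taf6l-KO they were matched at 0% for Myc (0 of 5), and so few peaks leave these shares loosely bounded. They were matched at 95% for RNAP in Taf5l-KO, 65.0% for RNAP-ser5 in Taf6l-KO and 92.0% for RNAP-ser2 in both knockouts. With TAF6L-FB peaks of −log10 q of at least 5, 355 regions remained, with RNAP at 85.4% and Oct4 at 3.10% in Taf6l-KO and TAF5L-FB at 3.94%. With no Oct4 peak allowed in any genotype, Oct4 was 0% in both knockouts by construction. Without chromosomes 1 and 8, 31 of 33 values counted as unchanged, among them the number of regions, at 626 against 854. Myc in Taf6l-KO was then 0% both as a share of regions and as a share of matched peaks. When 50% of the wild-type peak had to be covered, the matched shares in Taf5l-KO and Taf6l-KO were 0.478 and 10.5% for H3K9ac, 2.08 and 0% for Myc and 89.4 and 91.3% for RNAP. They were 68.3 and 27.5% for RNAP-ser5, 65.0 and 70.1% for RNAP-ser2 and 88.8 and 88.1% for H3K4me3. When weaker peaks (−log10 q under 5) were dropped from both lists, they were 23.2% for H3K9ac and 0% for Myc in Taf6l-KO, 91.6 and 94.2% for RNAP, 62.9 and 76.6% for RNAP-ser2 and 98.1 and 97.9% for H3K4me3. Among the strongest 50% of wild-type peaks they were 41.5% for H3K9ac in Taf6l-KO, and 98.7 and 98.3% for RNAP. RNAP-ser5 was then matched at 85.9 and 63.4%, RNAP-ser2 at 88.1 and 93.2%, and H3K4me3 at 100% in both.

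Regions built from 1 TAF6L-FB line alone, leaving out the other, numbered 217 to 687. Ranges over both choices were 68.2 to 74.7% (wild type), 75.1 to 83.0% (Taf5l-KO) and 78.8 to 83.8% (Taf6l-KO) for RNAP, and 22.1 to 27.2% for RNAP-ser5 in Taf6l-KO. They were 45.2 to 52.7% and 56.7 to 62.7% for RNAP-ser2 and 87.6 to 92.9% and 87.6 to 93.6% for H3K4me3 in Taf5l-KO and Taf6l-KO. They were 2.47 to 4.61% and 1.601 to 4.15% for Oct4, 0 to 0.582% and 0 to 0.146% for Myc, and 2.62 to 4.15% for TAF5L-FB. Matched shares ranged from 1.69 to 5.45% (Taf5l-KO) and 27.1 to 37.0% (Taf6l-KO) for H3K9ac, 0 to 10.3% and 0 to 2.56% for Myc, 95.2 to 97.5% and 96.5 to 98.6% for RNAP, and 91.6 to 94.2% and 92.1 to 95.6% for H3K4me3. No paired analysis was possible because each antibody and genotype has 1 library. Unique tags of the ChIP libraries were fewer than in wild type for RNAP-ser2, H3K4me3 and Oct4 in both knockouts. They were also fewer for RNAP-ser5 and Myc in Taf6l-KO, and more numerous in both knockouts for H3K9ac and RNAP. The inputs were deepest in wild type, with 7771755 unique tags against 6245652 in Taf5l-KO and 5923469 in Taf6l-KO. They were smaller than the H3K9ac libraries, which were scaled down to them.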
